A study of Mus musculus with 6 samples.

Results

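Synaptic vesicle and SNARE gene families were taken from the deposited mouse gene table by name, as the rows called synaptotagmin (Syt), syntaxin (Stx), syntaxin-binding protein (Stxbp), synapsin (Syn1 to Syn3), VAMP, SNAP, complexin (Cplx), SV2, RIM (Rims) and Rab3. The name pattern found 68 of 34250 rows. One of them, Snap91, matches by spelling only, because it encodes the clathrin adaptor AP180 and not a SNAP-25 family SNARE. The name pattern used no measured value, but the families were chosen with earlier results of these data known.

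The libraries were 3 from fibrinogen-treated cells, with a dose of 2.5 mg in the column names, and 3 from control cells. All 6 were labelled as wild-type C57BL/6 brain oligodendrocyte progenitor cells (OPCs), and the methods of the study describe cortical OPCs cultured from newborn pups. For cultured OPCs the methods give fibrinogen at 2.5 mg/mL or its vehicle, and the treatment time of these libraries is not given in the sources used here. Whether the libraries were grown as separate cultures is not stated in the labels, so a p here reflects only how far these libraries scatter, and that scatter may be technical. The question was which genes differ when OPCs are exposed to fibrinogen, the clotting protein that enters the brain when its vessels leak.

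Each library held between 36670999 and 44448983 reads assigned to genes. Neuronal markers stood far above OPC markers, against the OPC label. The 11 neuronal markers summed to 2063 to 2926 RPKM (reads scaled to exon length and to the library's total) in the fibrinogen libraries, against 2375 to 3184 RPKM in the control libraries, and the 8 OPC markers to 83.0 to 86.6 RPKM in the fibrinogen libraries, against 57.5 to 59.6 RPKM in the control libraries. No marker of either list was at 0. Meg3 made up much of the neuronal sum and its spread, at 487 to 1375 RPKM with fibrinogen and 774 to 1538 RPKM in controls. Camk2a, another of the 11, had 403 to 534 RPKM with fibrinogen and 533 to 602 RPKM in controls. Other neuronal markers lay apart in both directions. Tubb3 was higher, at 62.6 to 74.6 RPKM with fibrinogen and 29.4 to 60.0 RPKM in controls. Nefl was also higher, at 277 to 328 RPKM with fibrinogen and 247 to 260 RPKM in controls. Rbfox3 was lower, at 43.7 to 54.6 RPKM with fibrinogen and 59.3 to 62.5 RPKM in controls. Of the 7 OPC markers tested, 5 were higher with fibrinogen (Olig1, Olig2, Sox10, Gpr17 and Cspg5), and of the 11 neuronal markers none passed. Pdgfra and Ptprz1 did not pass (limma adjusted p = 0.615 and 0.0530). Pdgfra had 5.79, 5.75 and 7.32 RPKM with fibrinogen and 6.29, 6.23 and 8.03 RPKM in controls, with overlap. With limma, 1689 of 14710 genes passed (11.5%). Without control replicate 3, whose Gfap level of 222 RPKM was far above 75.7 and 82.5 RPKM in the other control libraries, 2300 genes passed. Leaving out any other single library instead lowered the number, to between 466 and 948 genes.

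Neurotransmitter release runs on SNARE proteins. A vesicle SNARE of the VAMP family zips with a syntaxin and a SNAP-25 family protein on the plasma membrane and pulls the membranes together. Munc18 proteins, among the syntaxin-binding proteins, hold the syntaxin, complexins clamp the assembled complex, synaptotagmins sense the calcium, RIMs and Rab3 GTPases dock the vesicle at the active zone, and synapsins and SV2 proteins sit on the vesicle. The brain forms of these genes are classic neuronal genes, and other forms serve membrane traffic in every cell.

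Most of the release machinery did not pass the test between the groups. Of the 68 genes, 60 passed the filter of 1 RPKM in 3 libraries and 8 did not. Of the 60, Rims1 rose with fibrinogen, Stx3, Stx17 and Stxbp3 fell, and 56 did not pass (limma on log2(RPKM + 1), Benjamini-Hochberg adjusted p under 0.05). The 4 that passed are 6.67% of the tested genes, beside 11.5% of all 14710 genes tested. The 1 higher gene is 1.67%, beside 5.87% of all genes, and the 3 lower genes are 5% beside 5.62%. Fibrinogen and control libraries did not overlap for 18 of the 60 (8 higher, 10 lower), or 30%, beside 35.1% of all genes. All 4 shares lie below the background. An unadjusted p under 0.05 was reached by 14 of the 60 (23.3%), beside 29.4% of all genes.

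The median log2 difference, fibrinogen minus control, was -0.0031 over the 60 genes, beside -0.0077 over all genes tested, and 30 genes had a positive and 30 a negative difference. The lower and upper quartiles were -0.14 and 0.10, beside -0.17 and 0.16 for all genes. For 46 of the 60 the 95% interval of the difference lay within the log2 of 1.5 on either side of 0 on the log2(RPKM + 1) scale, a bound that allows a larger fold in RPKM for genes of low level. In bulk RNA, fewer cells of a type and less RNA per cell cannot be told apart.

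**Figure D1:**
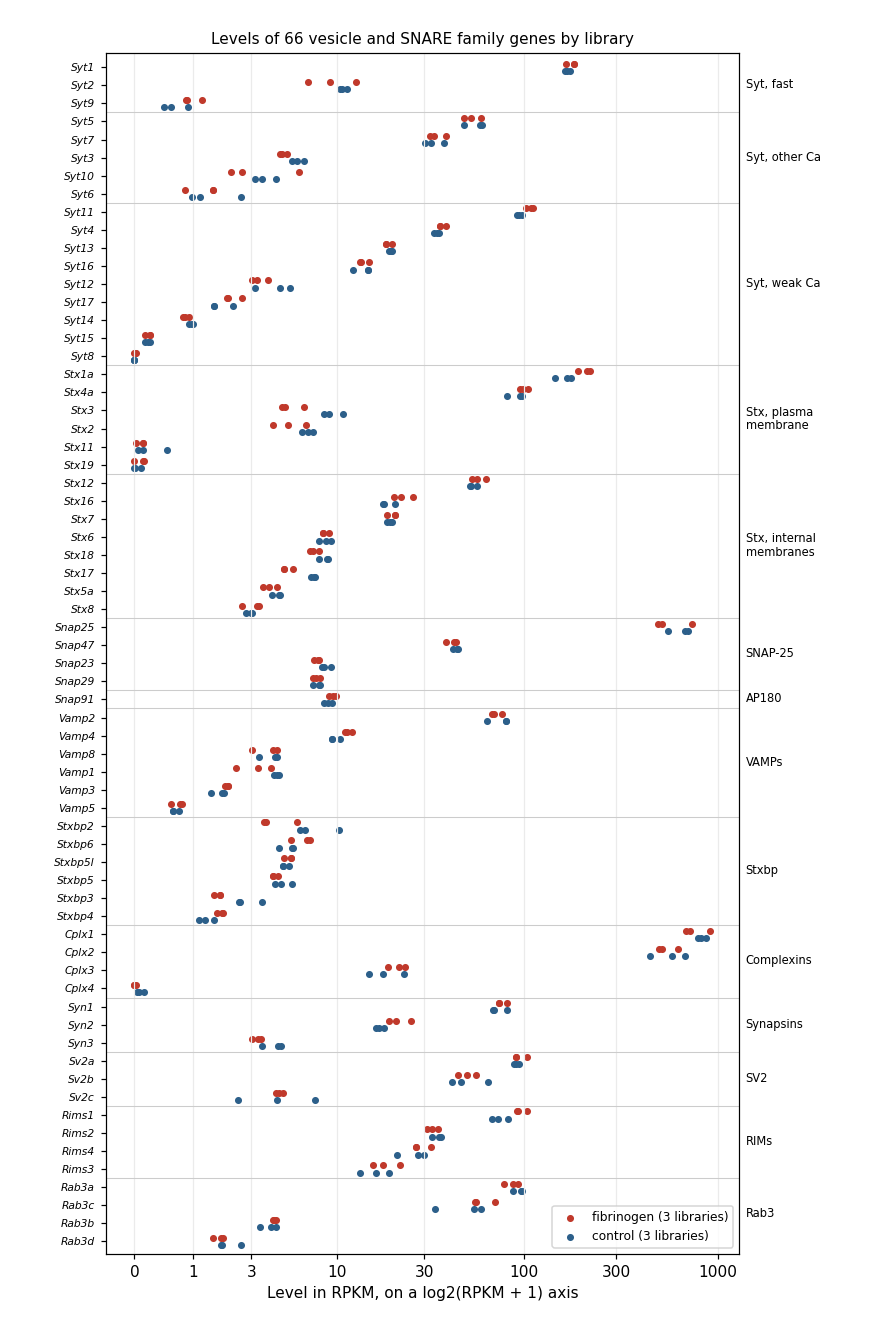
Level of 66 of the 68 genes in each library, in RPKM on a log2(RPKM + 1) axis, grouped by role (fibrinogen points drawn above control points in each row). Cplx1, Snap25 and Cplx2 stand furthest right, at 449.8 to 918 RPKM, and the points of both groups lie over each other in most rows.

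The genes were abundant. They took 1.98%, 1.66% and 1.72% of the reads in the fibrinogen libraries, against 1.83%, 1.90% and 1.68% in the control libraries, and the median tested member averaged 12.4 RPKM, beside 5.24 RPKM for all tested genes. Cplx1, Snap25 and Cplx2 together made up 45.7% to 53.3% of the summed RPKM of the 68 genes in the fibrinogen libraries, against 49.3% to 55.1% in the control libraries. Among the next most abundant were Stx1a, Syt1 and Syt11, with means over all libraries of 185, 172 and 101 RPKM. The ranges of Cplx1 and Snap25, of Snap25 and Cplx2 and of Stx1a and Syt1 overlapped, while the lowest Cplx2 value (449.8 RPKM) was above the highest Stx1a value (219 RPKM) and the lowest Syt1 value (163 RPKM) above the highest Syt11 value (111 RPKM).

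Among the target-membrane SNAREs, Stx3 and Stx17 fell, and both were minor syntaxins in these libraries. Stx3 encodes a plasma membrane syntaxin known from apical membranes of epithelia and from ribbon synapses of the retina. Stx3 stood at 4.93, 6.43 and 4.72 RPKM in the fibrinogen libraries, against 9.08, 8.42 and 10.8 RPKM in the control libraries. Every fibrinogen library was below every control library, with a log2 difference of -0.72 ± 0.13 (SE, limma, Benjamini-Hochberg adjusted p = 0.0194).

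Stx17 encodes the syntaxin that autophagosomes take up before they fuse with lysosomes. Its levels were 4.89, 5.57 and 4.92 RPKM with fibrinogen and 7.44, 7.06 and 7.53 RPKM in controls. The highest fibrinogen library was below the lowest control library, with a log2 difference of -0.45 ± 0.08 (SE, limma, Benjamini-Hochberg adjusted p = 0.0168). Both calls were kept without control replicate 2, control replicate 3 or fibrinogen replicate 2 and lost without any 1 of the others. Without control replicate 1, fibrinogen replicate 1 or fibrinogen replicate 3, the limma adjusted p was 0.0653, 0.0748 and 0.0708 for Stx3 and 0.0757, 0.0675 and 0.0651 for Stx17, with the direction kept.

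Among the plasma membrane syntaxins, Stx1a and Stx4a were far more abundant than Stx3 and did not pass. Stx1a, the founding partner of SNAP-25 at the synapse, had 219, 191 and 212 RPKM in the fibrinogen libraries and 174, 145 and 168 RPKM in the control libraries. The groups did not overlap, with a log2 difference of 0.35 ± 0.10 (SE, limma, Benjamini-Hochberg adjusted p = 0.0653). How reads that fit more than 1 syntaxin were counted is not given in the sources used here. Stx4a, the widely expressed plasma membrane syntaxin, averaged 99.4 ± 4.54 RPKM in fibrinogen libraries and 91.5 ± 8.67 RPKM in control libraries (SD, n = 3 each). Of the 2364 exon bases of Stx4a, 124 are shared with a gene on the opposite strand, and the counting is not stated to use strand, so the Stx4a level is uncertain. Stx2, which is related to Stx3 and lay near its level, spanned 4.17 to 6.66 RPKM with fibrinogen and 6.27 to 7.27 RPKM in controls.

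The syntaxins of internal membranes, which serve endosomes, the Golgi and the endoplasmic reticulum, had 1 gene lower (Stx17) of 8 tested. Stx12, an endosomal syntaxin, was the most abundant with 56.9, 53.6 and 63.5 RPKM in fibrinogen libraries and 52.8, 52.1 and 57.2 RPKM in control libraries. Stx16, of the trans-Golgi network, had 20.5, 26.1 and 22.6 RPKM with fibrinogen and 18.0, 18.1 and 20.9 RPKM in controls. The Stx12 and Stx16 ranges overlapped between groups, and neither passed (limma adjusted p = 0.5001 and 0.153). The remaining rows were the late endosomal Stx7 with 18.9 to 21.01 RPKM with fibrinogen and 18.9 to 20.2 RPKM in controls and Stx8 with 2.59 to 3.40 RPKM with fibrinogen and 2.76 to 3.04 RPKM in controls. Of the Golgi and trans-Golgi forms, Stx6 spanned 8.31 to 9.03 RPKM with fibrinogen and 7.94 to 9.26 RPKM in controls and Stx5a spanned 3.60 to 4.44 RPKM with fibrinogen and 4.10 to 4.60 RPKM in controls. Stx18 spanned 7.04 to 7.91 RPKM with fibrinogen and 7.95 to 8.91 RPKM in controls, just apart, with a log2 difference of -0.18 ± 0.08 (SE, limma, Benjamini-Hochberg adjusted p = 0.179). Stx18, an endoplasmic reticulum syntaxin, shares 574 of its 4593 exon bases with Nsg1 and 908 with Gm42858. Both lie on the other strand, so the Stx18 level is uncertain.

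**Figure D2:**
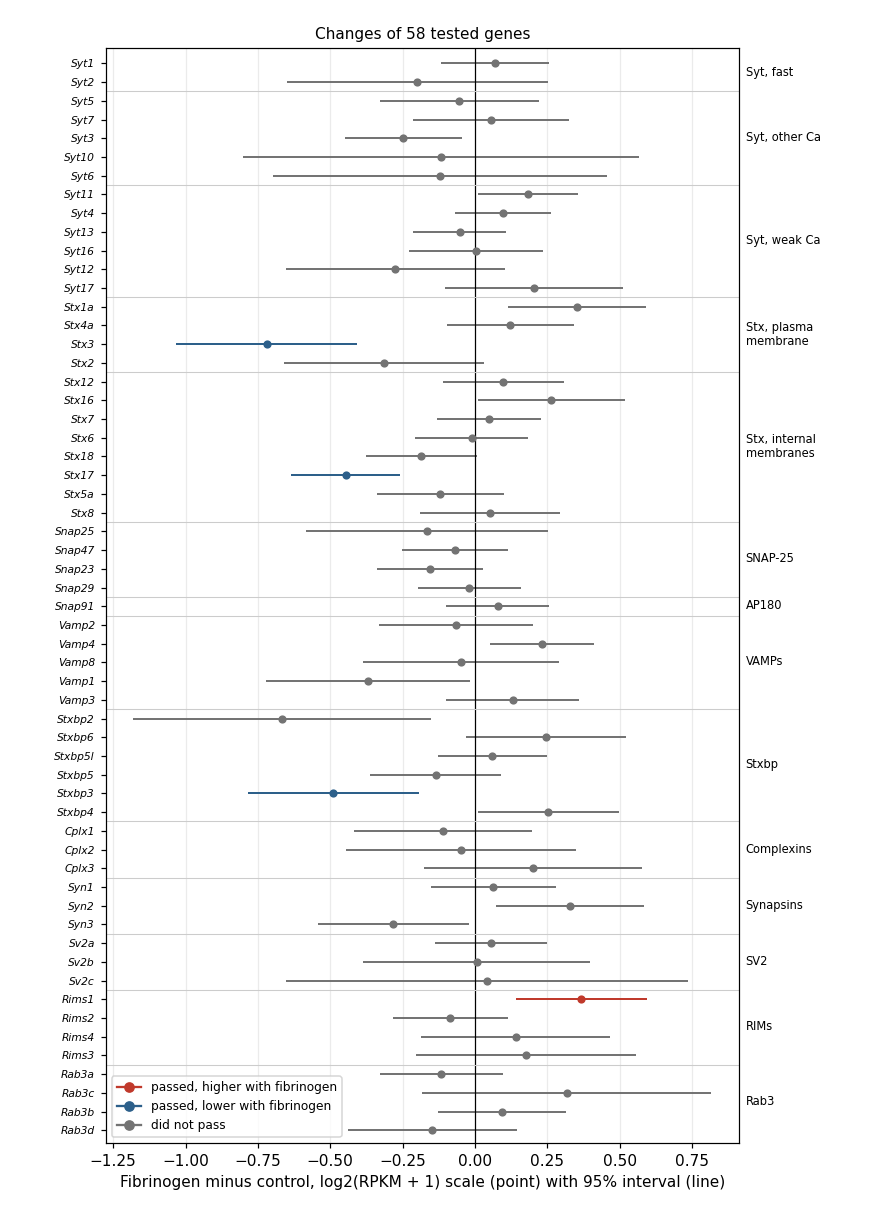
Difference of 58 of the 60 tested genes, as the fibrinogen mean less the control mean in log2(RPKM + 1) (point), with its 95% interval (line), grouped by role. Rims1 at 0.37 is the only gene drawn as higher, Stx3 at -0.72, Stxbp3 at -0.49 and Stx17 at -0.45 are drawn as lower, and most other intervals cross 0.

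None of the SNAP-25 family passed. Snap25, the neuronal member, was at 735, 515 and 493 RPKM in the fibrinogen libraries and at 676, 704 and 552 RPKM in the control libraries. Fibrinogen replicate 1 was the highest library of all 6 and the other fibrinogen libraries were the lowest, so that the 95% interval was wide, from -0.58 to 0.25. Snap47, a relative that lacks the membrane anchor, had 42.9, 39.1 and 44.4 RPKM with fibrinogen and 44.8, 45.4 and 42.4 RPKM in controls. Of the 2651 exon bases of Snap47, 307 are shared with Jmjd4 on the other strand, so its level is uncertain. The widely expressed Snap23 spanned 7.36 to 7.88 RPKM with fibrinogen and 8.25 to 9.29 RPKM in controls, and Snap29, which pairs with syntaxin 17 on autophagosomes, spanned 7.28 to 7.96 RPKM with fibrinogen and 7.29 to 8.01 RPKM in controls. Snap91, the adaptor that is no SNARE, had 9.88, 9.48 and 9.03 RPKM with fibrinogen and 8.86, 8.50 and 9.38 RPKM in controls. The groups were apart for Snap23 alone of these rows, with a log2 difference of -0.16 ± 0.08 (SE, limma, Benjamini-Hochberg adjusted p = 0.223).

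Among the vesicle SNAREs the main neuronal form, Vamp2, did not pass, at 69.9, 67.9 and 76.9 RPKM in the fibrinogen libraries and 80.8, 81.0 and 64.0 RPKM in the control libraries. The ranges overlapped, with a 95% interval from -0.33 to 0.20. Vamp4, of the trans-Golgi network and endosomes, had 11.2, 11.5 and 12.1 RPKM with fibrinogen and 9.44, 10.4 and 9.40 RPKM in controls, groups that do not overlap, with a log2 difference of 0.23 ± 0.07 (SE, limma, Benjamini-Hochberg adjusted p = 0.0911). Vamp1, the other synaptobrevin, spanned 2.34 to 4.04 RPKM with fibrinogen and 4.22 to 4.53 RPKM in controls, without overlap, with a log2 difference of -0.37 ± 0.15 (SE, limma, Benjamini-Hochberg adjusted p = 0.151). The remaining rows were Vamp8, of endosomes and granules, with 3.02 to 4.43 RPKM with fibrinogen and 3.36 to 4.40 RPKM in controls and Vamp3, the cellubrevin of non-neuronal cells, with 1.91 to 2.03 RPKM with fibrinogen and 1.48 to 1.91 RPKM in controls, just apart (limma adjusted p = 0.409).

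Stxbp3 fell among the syntaxin-binding proteins. It encodes Munc18c, the widely expressed Munc18 that binds syntaxin 4. Stxbp3 was read at 1.77, 1.75 and 1.58 RPKM in the fibrinogen libraries and at 2.50, 2.44 and 3.52 RPKM in the control libraries. No fibrinogen library reached the lowest control library, with a log2 difference of -0.49 ± 0.12 (SE, limma, Benjamini-Hochberg adjusted p = 0.0485). The Stxbp3 call was lost without control replicate 1 (limma adjusted p = 0.102), control replicate 2 (0.0763), fibrinogen replicate 1 (0.121), fibrinogen replicate 2 (0.0950) or fibrinogen replicate 3 (0.143), and held without control replicate 3, whose 3.52 RPKM was the highest.

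Stxbp2, the Munc18 of granule release in blood and epithelial cells, had 3.62, 5.87 and 3.77 RPKM with fibrinogen and 6.09, 6.59 and 10.2 RPKM in controls. The groups did not overlap, control replicate 3 was far above the rest, and the test was not passed, with a log2 difference of -0.67 ± 0.22 (SE, limma, Benjamini-Hochberg adjusted p = 0.0935). The tomosyns compete with VAMPs for syntaxin, and of them Stxbp5 spanned 4.15 to 4.50 RPKM with fibrinogen and 4.30 to 5.46 RPKM in controls while Stxbp5l spanned 4.87 to 5.41 RPKM with fibrinogen and 4.79 to 5.25 RPKM in controls. Stxbp6 (amisyn) spanned 5.36 to 6.97 RPKM with fibrinogen and 4.55 to 5.52 RPKM in controls, and Stxbp4, which binds syntaxin 4, spanned 1.66 to 1.85 RPKM with fibrinogen and 1.14 to 1.57 RPKM in controls, without overlap, with a log2 difference of 0.25 ± 0.10 (SE, limma, Benjamini-Hochberg adjusted p = 0.152).

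**Figure D3:**
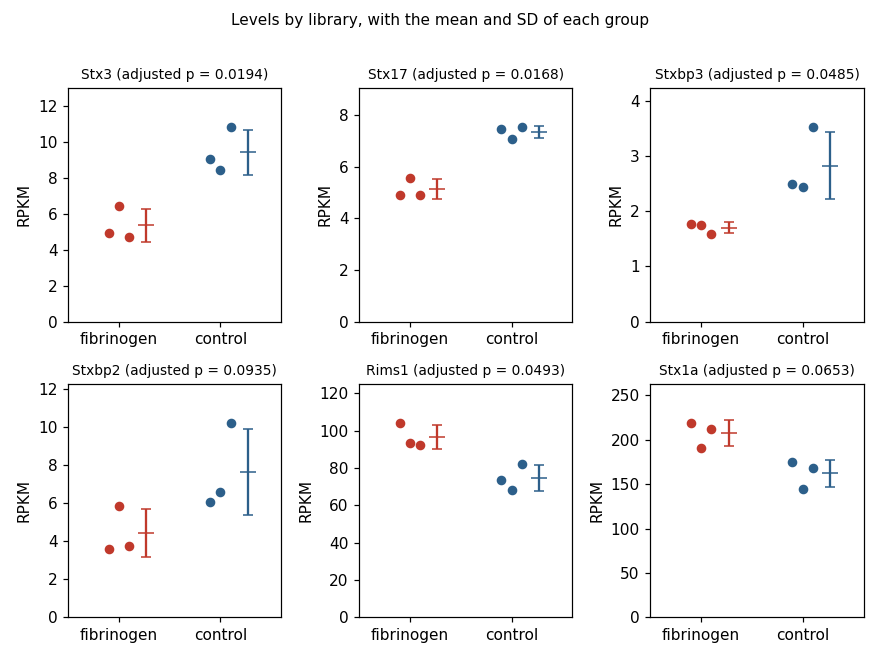
Level in each library, in RPKM on axes from 0, for Stx3, Stx17, Stxbp3, Stxbp2, Rims1 and Stx1a, with fibrinogen libraries left of control libraries and the mean and SD of 3 libraries beside each group. In none of the 6 panels do the groups overlap, and control replicate 3 is the highest point for Stx3, Stxbp3 and Stxbp2.

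Rims1 was the one gene that rose. It encodes RIM1, the scaffold that ties vesicles and calcium channels to the active zone. Its level was 104, 93.4 and 92.4 RPKM in the fibrinogen libraries, against 73.6, 68.4 and 82.2 RPKM in the control libraries. All fibrinogen libraries were above all control libraries, with a log2 difference of 0.37 ± 0.09 (SE, limma, Benjamini-Hochberg adjusted p = 0.0493). This was the call nearest to the threshold. The limma adjusted p was 0.157 without control replicate 1, 0.142 without control replicate 2, 0.152 without fibrinogen replicate 1, 0.0875 without fibrinogen replicate 2 and 0.103 without fibrinogen replicate 3, and the call held without control replicate 3. Among the other RIMs, Rims2 had 35.5, 32.9 and 30.9 RPKM in fibrinogen libraries and 35.8, 32.8 and 36.8 RPKM in control libraries. The short forms Rims3 and Rims4, which lack most RIM domains, did not pass either, Rims3 spanning 15.9 to 22.3 RPKM with fibrinogen and 13.5 to 19.4 RPKM in controls and Rims4 spanning 27.1 to 32.6 RPKM with fibrinogen and 21.4 to 29.9 RPKM in controls.

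The 4 genes that passed are shown by the 250 bases upstream of their RefSeq start sites (GRCm38.p6), 5′ to 3′ on the gene's own strand, because these are the genes whose levels passed the test. Capitals mark matches on either strand to the GC box (GGGCGG), the CCAAT box (CCAAT), the cAMP response element (TGACGTCA) or the TATA box (TATAAA). For Stx3 the window is chr19:11819404-11819653 (- strand), for Stx17 chr4:48124669-48124918 (+ strand), for Stxbp3 chr3:108840503-108840752 (- strand) and for Rims1 chr1:22806159-22806408 (- strand). The Rims1 start site lies 434 bases upstream of the first exon in the deposited table, and that of Stxbp3 lies 24 bases inside it.
Stx3: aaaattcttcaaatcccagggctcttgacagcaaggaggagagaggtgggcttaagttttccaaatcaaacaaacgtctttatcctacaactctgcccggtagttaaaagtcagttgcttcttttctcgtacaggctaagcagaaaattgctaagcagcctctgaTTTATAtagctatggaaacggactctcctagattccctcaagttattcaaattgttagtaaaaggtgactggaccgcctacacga
Stx17: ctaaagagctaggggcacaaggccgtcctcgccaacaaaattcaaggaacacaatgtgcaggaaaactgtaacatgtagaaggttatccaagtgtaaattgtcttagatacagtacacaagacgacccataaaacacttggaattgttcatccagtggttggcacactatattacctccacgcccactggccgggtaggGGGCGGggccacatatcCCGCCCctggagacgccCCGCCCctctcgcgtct
Stxbp3: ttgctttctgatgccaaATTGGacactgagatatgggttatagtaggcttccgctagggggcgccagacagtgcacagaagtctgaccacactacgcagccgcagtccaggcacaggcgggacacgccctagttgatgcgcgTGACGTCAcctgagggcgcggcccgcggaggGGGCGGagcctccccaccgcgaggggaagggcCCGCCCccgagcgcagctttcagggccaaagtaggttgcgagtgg
Rims1: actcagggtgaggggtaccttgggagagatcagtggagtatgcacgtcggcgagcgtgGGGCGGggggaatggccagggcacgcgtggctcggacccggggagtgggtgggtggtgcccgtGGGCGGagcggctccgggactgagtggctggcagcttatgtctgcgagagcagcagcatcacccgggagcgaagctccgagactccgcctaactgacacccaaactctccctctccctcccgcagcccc

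The Stx3 window held no GC box and 1 TATA box match. Stx17 had 3 GC boxes, Rims1 had 2, and Stxbp3 had 2 with a CCAAT box and a cAMP response element. No motif searched was in all of the 3 genes that fell. Of the 68 genes, 53 matched a RefSeq window by symbol, chromosome and strand. Of these, 16 have the same start as the deposited table. The start lies 68793 bases away for Cplx2, 17514 for Stx4a, 2565 for Syt11 and 1152 for Snap47, so a window may not be the promoter of the deposited row. A GC box was in 69.8% of their windows, against 32.7% of all 32851 windows, and the median GC content was 62.4% against 52.4%. The CCAAT box was in 28.3% of member windows against 33.8% of all windows, the TATA box in 5.7% against 12.4%, the cAMP response element in 3.8% against 1.5% and the E-box (CACGTG) in 11.3% against 6.0%. Part of the binding site of REST, the repressor of neuronal genes outside neurons (TTCAGCACC), was in 1.9% against 0.3%, in Syn1 alone among the members. These shares are descriptions, and a match is not shown to be a site. Each member gave 1 window, while the full set was limited neither to 1 window a gene nor to genes expressed here. The sets compared are therefore unlike.

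Of the calcium-sensing synaptotagmins, none passed. Syt1, the fast calcium sensor of forebrain synapses, was even across libraries, with 182, 165 and 182 RPKM with fibrinogen and 167, 163 and 173 RPKM in controls. Its 95% interval ran from -0.11 to 0.25. Syt2, the fast sensor of the hindbrain and the nerve-muscle junction, had 12.8, 9.15 and 6.81 RPKM in fibrinogen libraries and 10.5, 11.4 and 10.7 RPKM in control libraries. The fibrinogen libraries spread on both sides of the controls.

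Syt5 and Syt7 were the most abundant of the other calcium-binding forms, and Syt7 is the slow sensor of asynchronous release. Syt5 had 48.8, 52.7 and 59.6 RPKM in fibrinogen libraries and 58.7, 60.5 and 48.4 RPKM in control libraries. Syt7 had 32.3, 39.1 and 33.9 RPKM in fibrinogen libraries and 32.6, 30.3 and 38.4 RPKM in control libraries. The groups overlapped for both genes. Of the 6966 exon bases of Syt7, 384 are shared with a transcript on the other strand, so its level is uncertain. Syt3 had 5.12, 4.73 and 4.59 RPKM with fibrinogen and 5.46, 5.83 and 6.42 RPKM in controls, without overlap, and did not pass, with a log2 difference of -0.25 ± 0.08 (SE, limma, Benjamini-Hochberg adjusted p = 0.105). Syt10 spanned 2.14 to 6.01 RPKM with fibrinogen and 3.16 to 4.32 RPKM in controls, and Syt6 spanned 0.817 to 1.55 RPKM with fibrinogen and 0.967 to 2.52 RPKM in controls, both with wide intervals.

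The synaptotagmins that bind calcium weakly or not at all had no call among 6 tested. Syt11, which acts in vesicle traffic and endocytosis, was the most abundant, at 111, 102 and 109 RPKM in fibrinogen libraries and 91.5, 94.3 and 97.3 RPKM in control libraries. The groups did not overlap, with a log2 difference of 0.18 ± 0.07 (SE, limma, Benjamini-Hochberg adjusted p = 0.141). Syt4, a form of neuropeptide granules, had 36.3, 36.5 and 39.1 RPKM with fibrinogen and 35.0, 35.7 and 33.6 RPKM in controls, again without overlap, and its 95% interval ran from -0.06 to 0.26. The remaining rows were Syt13 with 18.7 to 20.0 RPKM with fibrinogen and 19.5 to 20.2 RPKM in controls, Syt16 with 13.5 to 15.2 RPKM with fibrinogen and 12.4 to 14.98 RPKM in controls, Syt12 with 3.03 to 3.85 RPKM with fibrinogen and 3.19 to 5.31 RPKM in controls and Syt17 with 1.99 to 2.58 RPKM with fibrinogen and 1.55 to 2.22 RPKM in controls. Syt12 shares 950 of its 5539 exon bases with a transcript on the other strand. Syt4 shares 575 of 3901 and Syt16 183 of 2705 in the same way, so these levels are uncertain.

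Complexins, which clamp the SNARE complex until calcium arrives, were the most abundant family and had no call. Cplx1 had 918, 722 and 685 RPKM in the fibrinogen libraries and 825, 870.4 and 795 RPKM in the control libraries. Cplx2 had 621, 499 and 518 RPKM in the fibrinogen libraries and 579, 682 and 449.8 RPKM in the control libraries. As with Snap25, fibrinogen replicate 1 was the highest fibrinogen library for both, and the 95% intervals ran from -0.41 to 0.19 for Cplx1 and from -0.44 to 0.35 for Cplx2. Cplx3, known from retinal ribbon synapses, spanned 19.1 to 23.7 RPKM with fibrinogen and 15.1 to 23.5 RPKM in controls.

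On the vesicle, synapsins tether vesicles to one another and to actin. Syn1 had 81.7, 74.1 and 74.2 RPKM in fibrinogen libraries and 69.6, 69.4 and 81.2 RPKM in control libraries, with overlap. Syn2 was at 19.5, 21.2 and 25.5 RPKM with fibrinogen and 17.1, 16.4 and 18.2 RPKM in controls, without overlap, and did not pass, with a log2 difference of 0.33 ± 0.11 (SE, limma, Benjamini-Hochberg adjusted p = 0.0918). Syn3, the early developmental form, spanned 3.05 to 3.47 RPKM with fibrinogen and 3.51 to 4.71 RPKM in controls, without overlap in the opposite direction, with a log2 difference of -0.28 ± 0.11 (SE, limma, Benjamini-Hochberg adjusted p = 0.139). Syn3 shares 1733 of its 12282 exon bases with Timp3, which lies inside the gene on the other strand, so its level is uncertain.

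The SV2 glycoproteins, entry receptors of botulinum toxin, had no call. Sv2a had 91.0, 91.4 and 104 RPKM in fibrinogen libraries and 88.9, 91.3 and 94.6 RPKM in control libraries. Sv2b had 50.7, 45.0 and 56.5 RPKM with fibrinogen and 46.7, 42.2 and 64.6 RPKM in controls. The 95% intervals ran from -0.13 to 0.25 for Sv2a and from -0.38 to 0.39 for Sv2b. Sv2c, the form of the basal ganglia, was the most variable of all tested members, spanning 4.36 to 4.78 RPKM with fibrinogen and 2.42 to 7.53 RPKM in controls.

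Rab3 GTPases mark vesicles ready to dock on RIM. Rab3a, the main synaptic form, had 87.6, 79.0 and 93.5 RPKM in fibrinogen libraries and 97.3, 96.4 and 88.0 RPKM in control libraries. Rab3c had 55.9, 55.2 and 70.9 RPKM with fibrinogen and 54.7, 59.5 and 34.2 RPKM in controls, where control replicate 3 was far below the rest. Neither passed (limma adjusted p = 0.432 and 0.362). Rab3b spanned 4.16 to 4.35 RPKM with fibrinogen and 3.43 to 4.36 RPKM in controls, and Rab3d, the form of secretory glands, spanned 1.55 to 1.87 RPKM with fibrinogen and 1.78 to 2.55 RPKM in controls.

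The 8 genes under the filter were Syt9, Syt14, Syt15, Syt8, Stx11, Stx19, Vamp5 and Cplx4. Syt9, Syt14 and Vamp5 were just under it. Syt9, a fast calcium sensor of striatal and limbic neurons, spanned 0.836 to 1.22 RPKM with fibrinogen and 0.412 to 0.882 RPKM in controls, Syt14 spanned 0.784 to 0.908 RPKM with fibrinogen and 0.903 to 1.002 RPKM in controls and Vamp5, a muscle form, spanned 0.540 to 0.756 RPKM with fibrinogen and 0.570 to 0.700 RPKM in controls. Lower still were Syt15 with 0.131 to 0.207 RPKM with fibrinogen and 0.132 to 0.199 RPKM in controls, Stx11, a syntaxin of blood cells, with 0.0228 to 0.113 RPKM with fibrinogen and 0.0437 to 0.478 RPKM in controls, and Stx19 with 0 to 0.120 RPKM with fibrinogen and 0 to 0.0832 RPKM in controls. Syt8 had 0, 2 and 1 reads in the fibrinogen libraries and no read in the control libraries, and 0 reads in a control library allow up to 3 reads, or 0.0371 to 0.0414 RPKM. Cplx4, a retinal complexin, had 1, 0 and 0 reads in the fibrinogen libraries and 4, 8 and 2 in the control libraries. No fold is given for the 8 genes, which were not tested. Syt8 and Cplx4 had few reads, while Syt14 had 343 to 511 reads in each library.

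**Figure D4:**
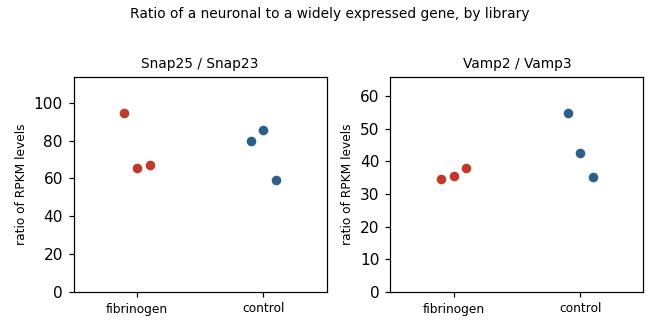
Ratio of the RPKM level of a neuronal gene to that of a widely expressed relative in each library, on axes from 0, with fibrinogen left of control. The Snap25 to Snap23 ratios of both groups lie over each other, and the fibrinogen points of Vamp2 to Vamp3 (34.6 to 38.0) lie within or just below the control range (35.3 to 54.8).

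The SNAP-25 family and the VAMPs each hold a neuronal and a widely expressed form, whose ratio within a library does not depend on depth. Snap25 to Snap23 ratios were 94.5, 65.3 and 66.9 with fibrinogen and 80.0, 85.4 and 59.4 in controls (log2 difference 0.01, exact permutation test, two-sided, p = 1). Vamp2 to Vamp3 ratios were 34.6, 35.6 and 38.0 with fibrinogen and 54.8, 42.5 and 35.3 in controls (log2 difference -0.27, exact permutation p = 0.3). The groups overlapped for both. With 3 against 3 libraries the smallest p is 0.1, so neither of the 2 ratios can pass an adjusted threshold of 0.05.

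Other genes of the release cycle were read from a list of 69 genes in 5 groups. Of the 64 tested, 7 rose, 1 fell and 56 did not pass, which is 12.5% beside 11.5% of all genes. By direction, 10.9% rose, beside 5.87% of all genes, and 1.56% fell, beside 5.62%. Of the priming factors 1 of 14 rose and 1 fell. Unc13a, which encodes Munc13-1 and readies vesicles with RIM1, had 28.9, 33.8 and 28.4 RPKM in the fibrinogen libraries and 20.0, 19.9 and 21.6 RPKM in the control libraries, with a log2 difference of 0.54 ± 0.09 (SE, limma, Benjamini-Hochberg adjusted p = 0.0140). Prrt2, a SNARE-binding regulator of release, had 69.0, 68.8 and 55.9 RPKM in the fibrinogen libraries and 109, 97.1 and 121 RPKM in the control libraries, with a log2 difference of -0.75 ± 0.12 (SE, limma, Benjamini-Hochberg adjusted p = 0.0130). Neither gene overlapped between groups. The most abundant of that list, Rph3a (rabphilin, a Rab3 effector), averaged 178 ± 24.7 RPKM with fibrinogen and 148 ± 24.2 RPKM in controls (SD, n = 3 each) and did not pass.

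Of 9 active zone scaffolds, Erc1 (ELKS, a RIM partner) and Ppfia4 (a liprin) rose. Erc1 had 9.88, 9.52 and 11.7 RPKM with fibrinogen and 7.24, 7.17 and 8.32 RPKM in controls, with a log2 difference of 0.40 ± 0.10 (SE, limma, Benjamini-Hochberg adjusted p = 0.0452). Ppfia4 had 23.9, 26.1 and 26.5 RPKM with fibrinogen and 20.4, 21.4 and 19.8 RPKM in controls, with a log2 difference of 0.30 ± 0.07 (SE, limma, Benjamini-Hochberg adjusted p = 0.0451). Ppfia3, the most abundant, did not pass. Bsn and Pclo, the giant scaffolds bassoon and piccolo, were not called either. The Bsn groups overlapped, while Pclo was higher with fibrinogen and its groups were just apart (limma adjusted p = 0.153).

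Of 11 vesicle membrane genes 2 rose, among them Syngr3 (synaptogyrin-3). Syngr3 had 10.3, 9.69 and 10.9 RPKM with fibrinogen and 7.90, 8.28 and 7.65 RPKM in controls, with a log2 difference of 0.34 ± 0.08 (SE, limma, Benjamini-Hochberg adjusted p = 0.0338). Its groups were apart, while Syp (synaptophysin), the most abundant, averaged 420.0 ± 25.3 RPKM with fibrinogen and 395 ± 26.7 RPKM in controls (SD, n = 3 each) and did not pass.

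Of 19 vesicle endocytosis genes, Synj2 and Itsn1 rose. Synj2 encodes a phosphoinositide phosphatase and had 6.28, 6.70 and 7.44 RPKM with fibrinogen and 5.15, 4.92 and 4.46 RPKM in controls, with a log2 difference of 0.42 ± 0.09 (SE, limma, Benjamini-Hochberg adjusted p = 0.0305). Itsn1 encodes an endocytic scaffold and had 16.3, 16.6 and 17.7 RPKM with fibrinogen and 13.9, 13.6 and 14.1 RPKM in controls, with a log2 difference of 0.27 ± 0.07 (SE, limma, Benjamini-Hochberg adjusted p = 0.0481). Dnm1 (dynamin-1), the most abundant, averaged 254 ± 7.22 RPKM with fibrinogen and 289 ± 22.0 RPKM in controls (SD, n = 3 each) and did not pass. The Dnm1 groups did not overlap (limma adjusted p = 0.199). No call was made among the 11 proton pump subunits tested, which acidify the vesicle for transmitter loading, and Atp6v1d, the most abundant, averaged 319 ± 19.7 RPKM with fibrinogen and 321 ± 28.5 RPKM in controls (SD, n = 3 each).

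Each call named from this list was lost on leaving out 1 library or more. Ppfia4 was lost on leaving out any library (limma adjusted p 0.0620 to 0.154). Erc1 (up to 0.152), Syngr3 (up to 0.122), Synj2 (up to 0.0977) and Itsn1 (up to 0.157) were lost on leaving out any library but control replicate 3. Unc13a was lost without control replicate 1 or control replicate 2 (up to 0.0637), and Prrt2 without control replicate 1 (0.0537).

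Beside these values stand the other marker lists. The list named neuroendocrine (Chga, Chgb, Scg2 and Scg3) had no gene called. It summed to 1920 to 2237 RPKM in fibrinogen libraries and to 2099 to 2418 RPKM in control libraries. Whether these genes mark a cell type apart from neurons here was not tested. The oligodendrocyte list of 7 genes summed to 171 to 281 RPKM with fibrinogen and 147 to 240 RPKM in controls, with 2 genes higher (Mag and Opalin). Mobp, its most abundant gene, had 64.5 to 107 RPKM with fibrinogen and 84.7 to 128 RPKM in controls, with overlap. The astrocyte list of 6 genes summed to 314 to 335 RPKM with fibrinogen and 338 to 461 RPKM in controls, with 1 gene higher (Aqp4). Gfap, of the same list, had 42.6, 32.3 and 42.4 RPKM with fibrinogen and 75.7, 82.5 and 222 RPKM in controls, without overlap, and narrowly did not pass, with a log2 difference of -1.50 ± 0.39 (SE, limma, Benjamini-Hochberg adjusted p = 0.0503). The microglial list of 6 genes summed to 43.4 to 47.9 RPKM with fibrinogen and 43.1 to 48.2 RPKM in controls, an even sum that holds 1 gene higher and 1 lower. Cx3cr1 averaged 15.2 ± 0.736 RPKM with fibrinogen and 7.53 ± 1.46 RPKM in controls, and C1qa averaged 6.53 ± 0.795 RPKM with fibrinogen and 18.4 ± 4.15 RPKM in controls (SD, n = 3 each), with limma and Benjamini-Hochberg adjusted p = 0.00873 for Cx3cr1 and 0.00563 for C1qa. The endothelial list of 4 genes summed to 19.4 to 24.2 RPKM with fibrinogen and 19.3 to 28.3 RPKM in controls, with 1 gene higher (Tek). The rest of that list, Pecam1, Cldn5 and Flt1, had negative log2 differences and did not pass. Pecam1 was lower without overlap, with a log2 difference of -0.41 ± 0.12 (SE, limma, Benjamini-Hochberg adjusted p = 0.0653). Cldn5 and Flt1 overlapped between groups, each with a log2 difference of -0.11. The part of cell makeup in the differences of Rims1, Stx3, Stx17 and Stxbp3 was not tested.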

How the data were processed

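RNA from 6 libraries labelled as mouse OPCs (3 fibrinogen, 3 control) was sequenced with a stranded mRNA kit. The authors deposited 1 table of RPKM values for 34250 genes. In the submitters' processing notes, the listed tools and build are Trimmomatic 0.39, STAR 2.7.6a, GRCm38, edgeR 3.12.1 and featureCounts 1.5.1, while the methods of the study name a later build, and the exon coordinates in the table are those of GRCm38. The strand setting of the counting is not given in the sources used here. RPKM, multiplied by exon length and by the library's total reads as recovered from the steps between low values, gave whole reads for 100% of values (tolerance 0.001 reads).

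The 14710 genes that reached 1 RPKM in 3 or more libraries were tested with limma 3.58.1 in R 4.3.3, with a trended prior variance, on log2(RPKM + 1), a scale that understates the change of low genes. Adjustment was by Benjamini-Hochberg over all 14710, at 0.05. Named are the genes that passed, the 2 most abundant of each role with all 6 values, every other member by its range (a few genes are not reported here), and the called and most abundant genes of each further list. The members and lists were chosen with earlier results of these data known. Alternatives changed the filter, pseudocount, scaling, weights, prior, threshold and libraries, ran limma-voom on recovered reads, or added the replicate number as a block. The limits given for 0 reads cover counting error only. Promoter windows came from RefSeq (GRCm38.p6).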

Additional observations from a re-analysis of the deposited data

How the results depend on the processing

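The number of higher members was 1 and of lower members 3. Without a filter on low values 0 were higher and 1 lower (Stx17), with array weights 7 and 5, with limma-voom on recovered reads 2 higher (Rims1 and Stx1a), and at an adjusted p under 0.01 it was 0 higher and 0 lower. With a pseudocount of 0.1, median-of-ratios scaling or an untrended prior variance, 0 were higher. Leaving out 1 library gave 0 to 1 higher and 0 to 5 lower, the 5 without control replicate 3. Libraries with the same number did not deviate together across groups (correlations 0.06, -0.24 and -0.07). The labels do not say whether a shared number marks a shared culture or batch, and 3 libraries a group cannot decide it. A replicate block gave 0 higher and 0 lower, with 600 genes called in all. Across 17 alternatives at the 0.05 threshold, Stx17 was called in 13, Stx3 in 12 and Rims1 in 7, and Stxbp3 in 9 of 16. Over all genes, 1689 passed, against 935 without a filter, 4041 with array weights, 320 at 0.01 and 466 to 2300 on leaving out a library. On leaving out a library, the log2 difference ranged from -0.12 to 0.18 for Sv2b, from -0.15 to 0.012 for Syt5, from -0.023 to 0.15 for Syt7, from -0.21 to 0.092 for Cplx2 and from -0.0058 to 0.088 for Sv2a, none of them called. No cause of these changes was tested. With 3 libraries a group, small differences of spread-out genes such as Sv2c (95% interval -0.65 to 0.73) were not detectable.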
